A study of Rattus norvegicus with 4 samples.

Results

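The antigen presentation genes examined here are 10 rat genes, 5 of the MHC class II pathway (Cd74, RT1-Da, RT1-Ba, RT1-Bb and Ciita) and 5 of the class I pathway (B2m, Tap1, Tap2, Psmb8 and Psmb9), out of 16579 genes that could be named on the array. They were chosen by symbol, with earlier results of these data known. Each had at least 1 probe whose accession led to that symbol, which gave 13 probes on 25 spots. RNA came from NR8383, a macrophage line grown out of the lung lavage of a normal rat, after 20 passages. All 4 cultures (replicates 1 to 4 of 1 group) had been exposed for 4 h to NRCWE001, a titanium dioxide, at a dose of 3 cm2/cm2, and each was measured on its own 1-colour array. Unexposed cells were not analysed here, and whether the particles raised or lowered any of these transcripts cannot be read from the values. The series' design calls the cultures biological replicates and gives no more on how they were set up. All 4 arrays lay on 1 slide, and p-values measure only the spread between them, in which culture and array cannot be told apart.

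MHC class II molecules show peptides of ingested proteins to CD4+ T cells. They are dimers of an alpha and a beta chain, which are assembled on the invariant chain, and CIITA is the transactivator that switches their genes on in professional antigen-presenting cells or after interferon-gamma. Class I molecules show peptides of the cell's own proteins to CD8+ T cells, and nearly all nucleated cells carry them. Their peptides are cut by the proteasome, pumped into the endoplasmic reticulum by the TAP transporter and bound by a heavy chain paired with beta-2-microglobulin.

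Transcripts of the class I members were detected throughout, and those of the class II members were not detected on any array. All 5 class I genes had signal well above background, a flag that the scanner software sets for each spot, on all 4 arrays, against 45.7% of all named genes. None of the 5 class II genes had it on any array, a state shared by 48.2% of all named genes, while 51.8% were detected on at least 1 array. By signal alone, the 5 class I genes and no class II gene exceeded the 99th percentile of the negative controls on all 4 arrays, as 52.2% of all named genes did. Over single spots, 36 of 36 readings of the class I genes and 0 of 64 readings of the class II genes carried the flag, beside 43.9% of 234868 readings of all non-control spots and 0 of 1232 readings of negative control spots, which hold a sequence with no known target. These counts are descriptions, since genes and spots are not replicates of a condition, and no test was run on them. No spot was saturated. Among the 4 arrays the median processed signal of the negative controls was 3.35 to 3.72 intensity units and their 99th percentile 5.62 to 7.48 units, while the dimmest non-control spot with the flag lay at 13.5 to 16.6 units.

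**Figure D1:**
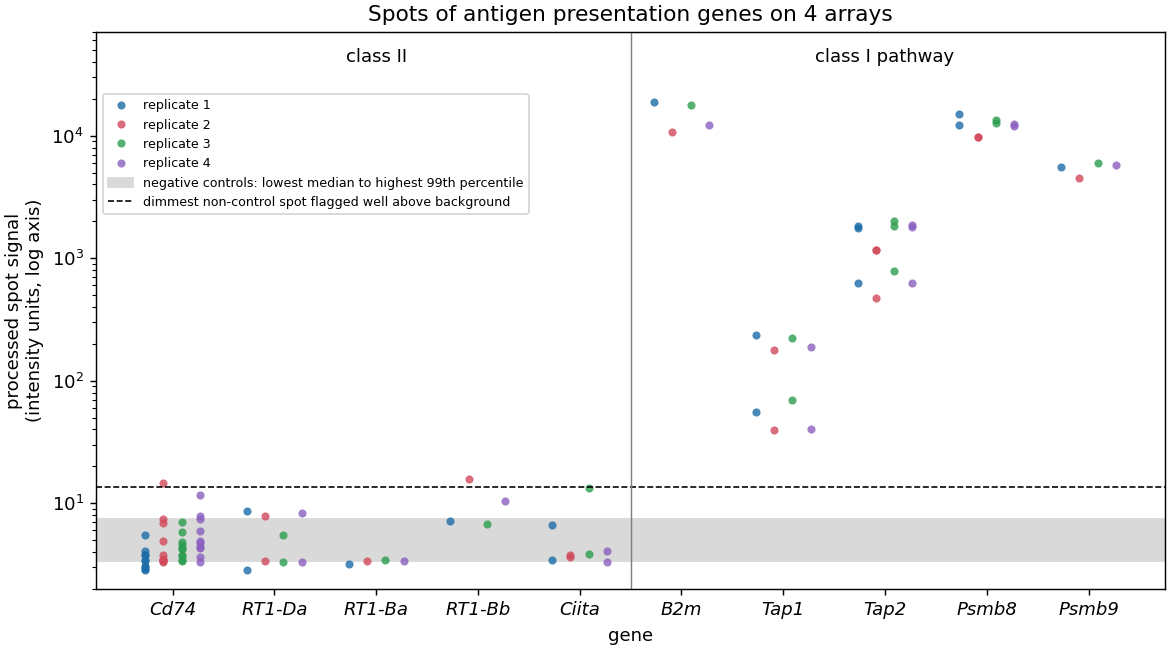
Processed signal of every spot of the 10 genes (intensity units, log axis), with 1 point per spot and array, coloured by replicate. Class II genes are on the left and class I pathway genes on the right. The grey band runs from the lowest median to the highest 99th percentile of the negative controls. The dashed line marks the dimmest flagged spot of any array (13.5 units, on replicate 1). On the other arrays that limit was 16.3 to 16.6 units, so the Cd74 and RT1-Bb points of replicate 2 above the line were not flagged. Class II spots lie between 2.84 and 15.7 units and class I spots between 39.7 and 18722 units.

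Cd74, the invariant chain that guides class II dimers to the endosome, had the most readings of the class II genes, because its probe was printed on 10 spots. All 10 spots held 1 and the same probe, so they cannot show how well that probe reads its transcript. The geometric mean over these spots was 3.50, 4.80, 4.38 and 5.40 units on replicates 1 to 4. The negative controls of the same arrays had medians of 3.35, 3.53, 3.72 and 3.69 units. Single spots ran from 2.84 to 14.7 units with a median of 3.92, and 8 of 40 readings exceeded the 99th percentile of the negative controls of their array. The spots of each array lay on both sides of its negative control median, and none was well above background.

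RT1-Da, an alpha chain of the D molecules (the rat counterpart of HLA-DR), had a geometric mean over its 2 spots of 4.99, 5.16, 4.26 and 5.24 units on replicates 1 to 4. Those means covered unlike spots, as 1 spot read 5.46 to 8.69 units and the other 2.86 to 3.38. RT1-Ba, the alpha chain of the B molecules (the counterpart of HLA-DQ), read 3.16, 3.34, 3.40 and 3.37 units and lay below the negative control median of all 4 arrays. RT1-Bb, the beta chain of the same dimer, read 7.19, 15.7, 6.80 and 10.3 units. Its reading on replicate 2 lay just under the dimmest flagged spot of that array (16.6 units), and on 3 of 4 arrays it exceeded the 99th percentile of the negative controls. Ciita had 2 probes on 1 spot each, and neither was flagged. The brighter read 6.59, 3.79, 13.3 and 3.31 units, the dimmer 3.40, 3.61, 3.87 and 4.07, and the 2 probes were highest on different arrays.

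A more lenient flag, for signal that is positive and significantly different from the local background, was set for 33 of 64 class II readings (51.6%), 5.52% of the negative control readings and 61.1% of all non-control readings. A probe was counted as detected where more than 0.5 of its spots carried a flag. By the lenient flag RT1-Bb was so on all 4 arrays, against 55.3% of all named genes. RT1-Da fell just short, with 1 of its 2 spots flagged on each array, and Cd74, RT1-Ba and Ciita did not reach it on all 4. The RT1 genes form a family of near-identical copies with many alleles, so the copy that an RT1 probe reads is uncertain, and probe sequences were not used here. Cd74 and Ciita are single genes outside that family.

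Levels below are log2 of the signal relative to the array's 75th percentile (347 to 554 units over unflagged non-control spots), with the SD over the 4 arrays. B2m, the light chain of every class I molecule, read 18722, 10674, 17916 and 12149 units on replicates 1 to 4, a level of 5.07 ± 0.25 (SD, n = 4). Replicate 1 was the high one after scaling, at 5.43 against 4.87 to 5.01 on the others. Psmb8 and Psmb9 code for catalytic subunits of the immunoproteasome, which replaces standard subunits under interferon. Psmb8 read 13529, 9791, 13091 and 12246 units (4.81 ± 0.17, SD, n = 4) and Psmb9 5581, 4515, 5949 and 5753 units (3.65 ± 0.16, SD, n = 4). Both were lowest on replicate 3 after scaling.

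Tap1 and Tap2 code for the subunits of the peptide transporter and had 2 probes each, all flagged on every array. The brighter Tap2 probe read 1805, 1159, 1934 and 1828 units (1.94 ± 0.19, SD, n = 4) and the dimmer 631, 473, 780 and 633 units (0.52 ± 0.07, SD, n = 4). Both Tap2 probes were above their mean on replicates 1 and 4 and below it on replicates 2 and 3. The brighter Tap1 probe read 236, 177, 225 and 188 units (-1.07 ± 0.19, SD, n = 4) and the dimmer 55.4, 39.7, 69.0 and 40.1 units (-3.12 ± 0.18, SD, n = 4). The 2 Tap1 probes differed on replicate 3, where the brighter lay 0.23 below its mean and the dimmer 0.11 above. With the mean over both probes Tap1 lay at -2.09 and Tap2 at 1.23. A difference in brightness between probes is not a difference in transcript, so the levels of the 5 genes are not ranked.

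None of the 5 class I genes stood out in its spread over the arrays from genes of similar brightness. Their median SD was 0.189 on the log2 scale, against 0.163 over the 7570 genes tested, and the lowest adjusted p among them was 0.988 for B2m (limma's variance against a trended robust prior, Benjamini-Hochberg over all genes tested). Calls were made for 39 of the 7570 genes (0.515%), and for the members none passed at an unadjusted p under 0.05 either. On simulated data for this test a 2 times larger SD was called in 5.5% of changed genes and a 4 times larger one in 63%, which leaves smaller changes of spread below what the test can find with 4 arrays. Among the class I members the brighter Tap2 probe and the Psmb8 probe had 2 spots each. The SD between spots within an array was 0.06 for that Tap2 probe and 0.11 for Psmb8, against 0.19 and 0.17 between arrays, where each value is a mean over both spots. For the undetected Cd74 and RT1-Da the SD within an array, 0.51 and 0.89, exceeded that between arrays, 0.43 and 0.40.

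On replicate 1 all 5 class I members lay above their own mean, by a median of 0.16, where 51.4% of the tested genes did. On replicate 3 all 5 lay below their own mean, by a median of 0.23, where 65.2% of the tested genes did and the median of all tested genes was -0.08. Scaling to the median of the detected probes gave the same counts. After quantile normalization 4 of 5 were below on replicate 3, and with a normexp background correction 4 of 5 were above on replicate 1 and 4 of 5 below on replicate 3. B2m was the exception on replicate 3 in both cases. Other class I pathway genes were mixed on replicate 1. RT1-A2 (6.19 against a mean of 6.34), RT1-CE5 (2.80 against 3.01) and Psmb10 (3.20 against 3.60) lay below their own mean. RT1-A1, RT1-A3 and Cd1d1 lay above theirs.

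**Figure D2:**
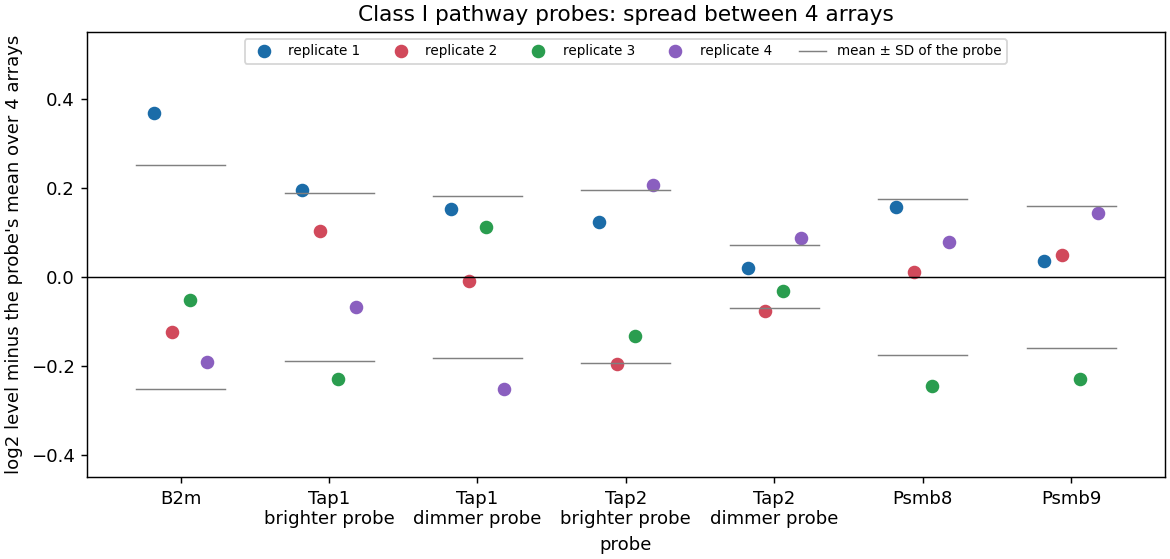
Log2 level of each class I probe minus its mean over the 4 arrays, coloured by replicate, with grey lines at 1 SD above and below the mean. Replicate 1 is above the mean for each probe and replicate 3 is below it for all but the dimmer Tap1 probe, with B2m on replicate 1 farthest from its mean at 0.37.

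Both sets are neighbours in the genome. In the rat annotation the class II region of the MHC on chromosome 20 runs from RT1-Da to RT1-DOa and holds 15 protein-coding genes, among them 7 of the 10 genes (all but Cd74, Ciita and B2m). These genes were looked at as a region after the member values were known. Of 14 with a named probe, 8 were detected on all 4 arrays and 6 on none, against 45.7% and 48.2% of all named genes. The run Tap2, Psmb8, Tap1, Psmb9, RT1-DMb and RT1-DMa was detected without a gap, while RT1-Da, RT1-Db2, RT1-Ba, RT1-Bb and RT1-DOb on one side and RT1-DOa on the other were not. The exception among the classical class II chains was RT1-Db1, a beta chain of the D molecules, which read 50.7, 57.9, 65.5 and 54.9 units and was flagged on all 4 arrays, while its alpha chain partner RT1-Da was not.

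**Figure D3:**
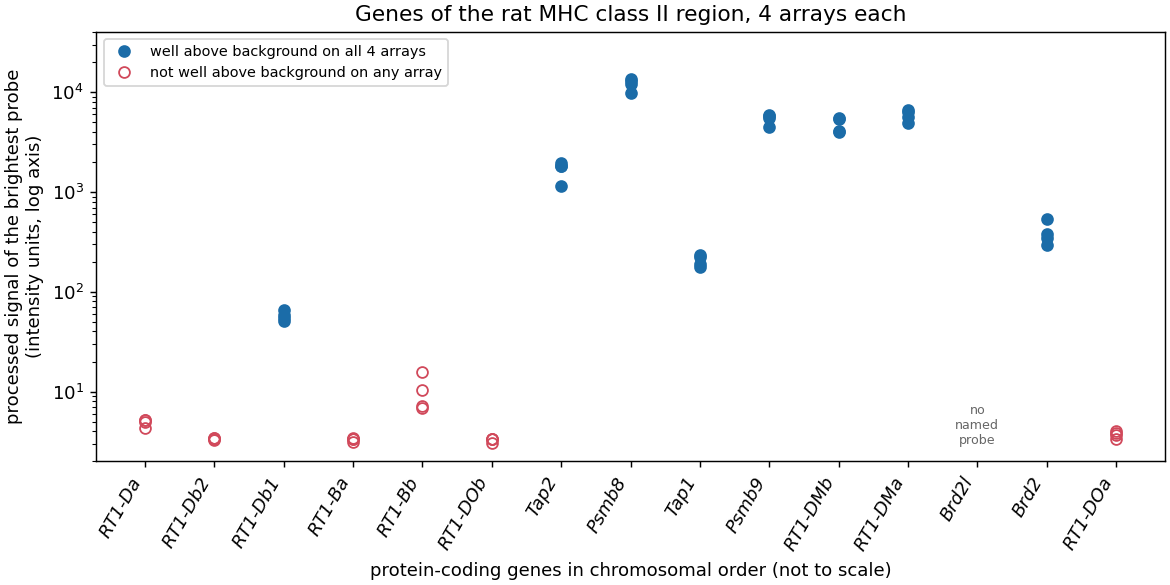
Processed signal of the brightest probe of each protein-coding gene of the MHC class II region in chromosomal order, not to scale (intensity units, log axis, 1 point per array). Filled points mark the 8 genes well above background on all 4 arrays and open points the 6 that were so on none, and Brd2l had no named probe.

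RT1-DMa and RT1-DMb form the non-classical class II molecule that loads peptides, and both were well above background on all 4 arrays. RT1-DMa read 6637, 4937, 6370.3 and 5674 units (3.77 ± 0.18, SD, n = 4) and RT1-DMb 4120.1, 3955, 5338 and 5573 units (3.45 ± 0.24, SD, n = 4). RT1-DOa and RT1-DOb, which form the molecule that holds DM back and is known mainly from B cells, read 3.08 to 3.98 units and were not detected. The enzymes of class II peptide handling were present. Ctss, cathepsin S, which trims the invariant chain, lay at 2.53 ± 0.19, the thiol reductase gene Ifi30 at 6.09 ± 0.24 and Marchf1, a ligase that takes class II from the surface, at -2.38 ± 0.31 (SD, n = 4 each). In all, 8 of 10 genes of this list of other class II molecules and processing enzymes were detected on all 4 arrays. Over all named genes that share was 45.7%.

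The proximal promoters of class II genes carry an X box, bound by the RFX complex, and a Y box, a reversed CCAAT sequence bound by NF-Y, on which CIITA assembles. Class I pathway promoters are known for interferon and NF-kB elements. RefSeq's promoter table (build GRCr8) matched 9 of the 10 members. RT1-Da was taken as an undetected class II gene, RT1-DMa as a detected non-classical one, and B2m, Tap1 and Tap2 from the class I pathway. Shown here are the 250 bases before the transcription start of RT1-Da, RT1-DMa, B2m, Tap1 and Tap2. They lie at chr20:4515165-4515414 (plus strand), chr20:4712336-4712585 (minus strand), chr3:129549080-129549329 (plus strand), chr20:4668544-4668793 (minus strand) and chr20:4652297-4652546 (minus strand), each printed in the direction of its gene. Capitals mark every match on either strand to the 4 motifs described here, GNNACNGAT for the X box core, CCAAT for the Y box, GAAANNGAA for the interferon-stimulated response element and GGGACTTTC for NF-kB, letters picked and shortened with these promoters in view.
RT1-Da: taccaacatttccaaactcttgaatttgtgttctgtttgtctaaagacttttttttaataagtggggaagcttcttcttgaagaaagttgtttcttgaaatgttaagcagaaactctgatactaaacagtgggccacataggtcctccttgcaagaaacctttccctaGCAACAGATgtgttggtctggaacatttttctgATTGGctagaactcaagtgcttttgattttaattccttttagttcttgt
RT1-DMa: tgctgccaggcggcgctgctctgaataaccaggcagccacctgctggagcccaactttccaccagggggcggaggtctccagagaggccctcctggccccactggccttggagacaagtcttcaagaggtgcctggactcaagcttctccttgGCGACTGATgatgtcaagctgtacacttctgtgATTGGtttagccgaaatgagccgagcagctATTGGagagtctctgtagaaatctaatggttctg
B2m: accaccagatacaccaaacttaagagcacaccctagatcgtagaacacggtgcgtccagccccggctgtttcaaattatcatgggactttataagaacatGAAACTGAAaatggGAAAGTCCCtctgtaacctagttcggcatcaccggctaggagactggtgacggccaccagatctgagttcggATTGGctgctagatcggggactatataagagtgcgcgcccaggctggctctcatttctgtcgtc
Tap1: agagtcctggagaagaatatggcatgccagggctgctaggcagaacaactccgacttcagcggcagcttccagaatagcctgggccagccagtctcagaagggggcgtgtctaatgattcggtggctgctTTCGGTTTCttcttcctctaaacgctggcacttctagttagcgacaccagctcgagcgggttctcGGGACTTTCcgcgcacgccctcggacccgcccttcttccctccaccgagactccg
Tap2: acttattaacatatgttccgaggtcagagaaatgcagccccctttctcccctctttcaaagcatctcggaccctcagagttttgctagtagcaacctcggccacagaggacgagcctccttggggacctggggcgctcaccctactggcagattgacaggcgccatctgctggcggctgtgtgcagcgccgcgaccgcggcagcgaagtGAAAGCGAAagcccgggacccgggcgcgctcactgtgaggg

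The X box core GCAACAGAT of RT1-Da ended 24 bases before its reversed CCAAT. That of RT1-DMa, GCGACTGAT, ended 24 bases before the nearer of its own 2. A gap of 23 bases was found in the undetected RT1-Bb and the detected RT1-Db1, and 21 in the undetected RT1-DOb. Other pairings of matches in RT1-Bb, RT1-Db1, RT1-DMa and RT1-DOb lay at other distances. Spacing and detection were not tested against each other. CCAAT, in either direction, was found in all 4 class II member promoters and in 3 of 5 class I ones. Its share was 37.5% of 33469 rat promoters of the same length, which reach 50 bases past the start. Not every match was a reversed CCAAT before the start. That of Cd74 was a forward CCAAT 185 to 189 bases before the start, and that of Psmb9 lay past the start. The X box core was found in RT1-Da and RT1-Bb, 2 of 4 class II members, and in 0 of 5 class I members. Over all promoters its share was 7.83%. Outside the members it was also in RT1-Db1, RT1-DMa and RT1-DOb. The class I heavy chain genes RT1-A2 (past the start) and RT1-A3 had it too. RT1-DOa, RT1-A1, Tapbp and Psmb10 had no match to it. The interferon element was found in 4 of 5 class I members, all but Psmb9 (in Psmb8 across the start itself). It was in 0 of 4 class II members, against 9.71% of all promoters. Outside the members Tapbp and Psmb10 had it, while the heavy chain genes RT1-A1, RT1-A2 and RT1-A3 had no match to these letters. Other spellings of the interferon element were not searched, so a lack of match does not show that a promoter lacks one. The NF-kB letters were in B2m and Tap1, against 0.326%. As the letters were picked with these promoters in view, the shares over all promoters are no independent background for the member counts. Tap1 and Psmb9 are read in opposite directions from starts 457 bases apart, and 44 bases lie in both windows, so the 2 genes share an upstream region. A match is no evidence that a factor was bound in these cells, and no match in the 9 promoters overlapped a match to another motif searched.

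The factors that bind the X and Y boxes were mostly detected. Of 7 genes of this list, 6 were well above background on all 4 arrays, against 45.7% of all named genes. The RFX subunit genes Rfx5 and Rfxap lay at -0.10 ± 0.07 and -1.30 ± 0.15 and the NF-Y subunit gene Nfya at -3.08 ± 0.14 (SD, n = 4 each). Rfxank, for the remaining RFX subunit, read 686 to 959 units. The exception was Nfyb, another NF-Y subunit gene, which read 4.58 to 9.84 units. Creb1, which binds beside RFX, was the most variable detected gene of the list, at -3.12 ± 0.25. Nfyc lay at -1.79 ± 0.24.

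Of 15 measured class I and class I-like heavy chain genes 12 were detected on all 4 arrays. The classical RT1-A1 lay at 7.41 ± 0.16, RT1-A2 at 6.34 ± 0.19 and RT1-A3 at 6.87 ± 0.22 (SD, n = 4 each), with the caution on copies given above. RT1-CE5 lay at 3.01 ± 0.20, and Cd1d1, a class I-like molecule that presents lipids, at -3.97 ± 0.25 (-2.45 with normexp), while Mr1, RT1-M2 and RT1-O1 were not detected. Of 6 measured genes of peptide loading and trimming 5 were detected on all arrays and Lnpep on 2. Tapbp, tapasin, which bridges TAP and the heavy chain, lay at 0.15 ± 0.11, its relative Tapbpl at -1.40 ± 0.12, and the chaperone genes Calr at 3.40 ± 0.15 and Canx at 1.43 ± 0.16. Pdia3, a disulphide isomerase of the loading complex, read 869, 399, 942 and 476 units and had an SD of 0.41, with an unadjusted p of 0.00212 and an adjusted p of 0.161 (limma, over all genes tested), so it did not pass. No probe was named for Nlrc5, the class I transactivator, or for Erap1.

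All 8 other proteasome genes listed were detected. Psmb10, the third inducible catalytic subunit, read 3983, 4967, 6221 and 6114 units (3.60 ± 0.32, SD, n = 4), lowest on replicate 1, and did not pass the variance test (limma, adjusted p = 0.522). Psme1 and Psme2, the interferon-inducible activator, lay at 4.91 ± 0.11 and 5.48 ± 0.16, and Psmb5, the standard counterpart of Psmb8, at 5.07 ± 0.18 (SD, n = 4 each). Transcripts of standard and of inducible catalytic subunits were both present.

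Of 14 genes of interferon-gamma signalling and its targets 9 were detected on all 4 arrays. Ifng, the cytokine itself, read 3.45 to 3.82 units and was not detected. Its receptor genes Ifngr1 and Ifngr2 lay at 3.10 ± 0.09 and 1.59 ± 0.11, and the kinase genes Jak1 and Jak2 at 2.46 ± 0.17 and -3.72 ± 0.28 (SD, n = 4 each). With the mean over its detected probes Jak1 lay at 0.45, and with normexp Jak2 lay at -2.33. Cxcl9, Irf8 and Socs1 were not detected, while Gbp5 was detected on 2 arrays. Of 6 measured co-stimulatory and co-inhibitory ligands 2 were detected on all 4 arrays, beside the same 45.7% of all named genes. Cd80, Cd86 and Cd40, which give T cells a co-stimulatory signal, lacked the flag on every array, while Cd83, a surface molecule of activated antigen-presenting cells, lay at 2.51 ± 0.12 and Cd274, the inhibitory ligand PD-L1, read 62.9, 49.5, 107 and 35.2 units (-2.88 ± 0.50, SD, n = 4 each). Cd274 did not pass the variance test (limma, adjusted p = 0.516).

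The cells carried macrophage transcripts, with 9 of 12 measured macrophage markers detected on all 4 arrays, against 45.7% of all named genes. Cd68, a lysosomal protein of macrophages, lay at 4.62 ± 0.14, Csf1r, the receptor for their growth factor, at -0.53 ± 0.09 and Mrc1, the mannose receptor, at -2.35 ± 0.29 (SD, n = 4 each). Marco, a scavenger receptor of alveolar macrophages, and Adgre1 (F4/80) lacked the flag on every array, and Mertk had it on 3. Most markers of B cells and dendritic cells, other cells that present antigen by class II, lacked the flag on every array. So did 48.2% of all named genes. Of 4 measured B cell markers Pax5 alone was detected (-1.69 ± 0.15, SD, n = 4). Of 6 measured dendritic cell markers Batf3 alone was (-0.63 ± 0.15, SD, n = 4), and of 5 T cell and 6 lung epithelium markers none was detected on all 4 arrays, though Cd3d was on 3. Their part in the values above was not tested.

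**Figure D4:**
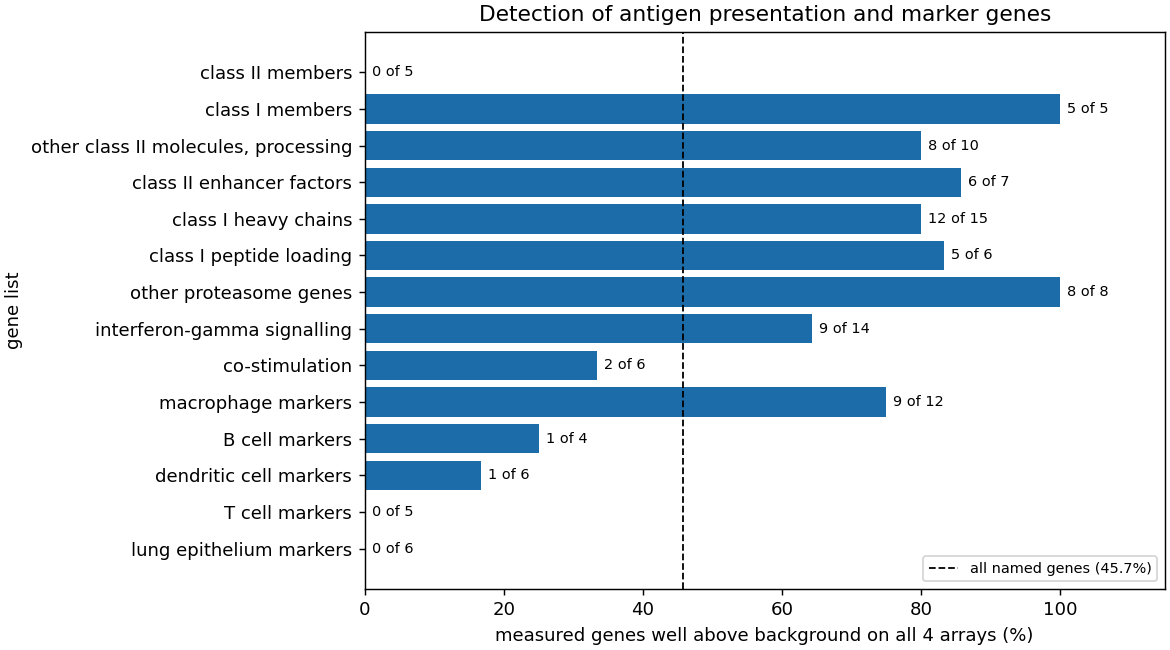
Share of the measured genes of each list that were well above background on all 4 arrays (bars start at 0, with the counts beside them). The dashed line marks the 45.7% of all named genes, and the class II members are at 0 of 5 while the class I members are at 5 of 5.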

How the data were processed

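Total RNA of 4 NR8383 cultures was labelled with Cy3 and hybridised to 1-colour Agilent arrays. The deposited intensity values are scanner output of Agilent Feature Extraction 11.0.1.1 per the file headers, in which the processed signal is already background-subtracted, and no normalization between arrays had been applied. Each array held 62976 spots, of which 58717 were not controls. Spots flagged as outliers (634 to 669 per array) were left out, the signals were divided by the array's 75th percentile and log2 was taken. The number of arrays limits the precision.

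Of 45598 probes 21109 were named through their accession in RefSeq's gene table (GRCr8), and 24489 were not named. Spots of 1 probe were averaged on the log scale, a probe counted as detected where more than 0.5 of its spots were flagged well above background, and the brightest probe stood for a gene. For the spread between arrays, limma (version 3.58.1, R 4.3.3) set each gene's variance against a trended robust prior (prior df 24.3), Benjamini-Hochberg adjusted over genes detected on all 4 arrays, with a call threshold of 0.05, and was tested on simulated data with 200 changed genes. All 4 arrays formed 1 group, so no comparison of treatments was made.

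The members and lists were chosen with earlier results of these data known. Named were all members and, of each other list, the first 4 measured genes and the detected gene of largest SD; other genes were named after their values were seen. Alternatives covered the flag, the scale, the background correction, the choice of probe, flagged spots, the prior and each replicate. A further promoter motif that was searched is not reported here.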

Additional observations from a re-analysis of the deposited data

Results flagged for a closer look

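In 2 of 39 named genes detected on all 4 arrays (5.13%), 1 array stood apart from the others by Dixon's test, which flags about 1 in 20 groups by chance. Rfx5, a subunit of the RFX complex, lay at -0.12, -0.14, -0.13 and 0.00 on replicates 1 to 4 (log2 relative to the 75th percentile). Replicate 4 was the high one, and its gap took a share of 0.906 of the range. Batf3, a transcription factor of dendritic cells, lay at -0.55, -0.56, -0.86 and -0.55, with replicate 3 low and a gap of 0.967 of the range. Neither passed limma's variance test (adjusted p = 0.998 for Rfx5 and 0.991 for Batf3).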

How the results depend on the processing

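The count of class I members detected was 5 under all 9 alternatives, and that of class II members was 0 under 8 of 9 and 1, RT1-Bb, with the flag for positive and significant signal. No member was called variable under any of 11 alternatives, with a lowest adjusted p of 0.624 (limma, after quantile normalization). At an unadjusted p under 0.05 in the same test, 1 member passed after quantile normalization and 1 without replicate 3. Over all genes the count of 39 variable genes moved to 0 after quantile normalization (449 at an unadjusted p under 0.05), 206 with normexp and 9 with a prior estimated without robustness, and leaving out 1 replicate each gave 10 (without replicate 3) to 77 (without replicate 2), with 16 without replicate 4. The cause was not tested. Of 108 counts over the other lists 21 differed from the reported count, 6 of them by more than 1.5 times or from 0. Of 351 levels of 39 named genes 43 moved by more than 1 SD, and 12 by more than 1.5 times. Averaging over detected probes gave -2.09 for Tap1, 1.23 for Tap2, 0.45 for Jak1 and -1.21 for Batf3, against -1.07, 1.94, 2.46 and -0.63. Normexp raised RT1-Db1 to -1.98, Marchf1 to -1.74, Nfya to -2.20, Creb1 to -2.01, Cd1d1 to -2.45, Jak2 to -2.33, Cd274 to -1.98 and Mrc1 to -1.64, all of them levels below the 75th percentile. An offset of 50 units was added to each signal after normexp, and its part in these rises was not tested. Normexp used median spot signals, and naming probes by a symbol column was not run, since such a column was not used here. No paired analysis was possible because there is 1 group. Signal over background limits the class II genes, which have no level above the flag's limit, though 15 of their 64 readings exceeded the 99th percentile of the negative controls.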
